A study of Mus musculus with 6 samples.

Results

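The genes described here are 10 transcripts of the amino acid response and of serine and one-carbon metabolism: Atf4, Ddit3, Trib3, Chac1, Asns, Phgdh, Psat1, Psph, Shmt2 and Mthfd2. They were chosen by name, with earlier results of these data known, and each matched 1 entry by its RefSeq accession, so that all 10 were found among the 23146 entries of the deposited tables. Sequencing of total RNA from EML cells gave 6 libraries in 4 groups: KAI1 knockdown (n = 2), its knockdown control (n = 2), KAI1 overexpression (n = 1) and its overexpression control (n = 1). EML is a mouse haematopoietic progenitor line that grows in stem cell factor, which every group received, and KAI1 is the tetraspanin membrane protein encoded by Cd82. The labels give all groups the strain BDF1, the tissue bone marrow and the cell type basophil. They do not say how KAI1 was lowered or raised, what the controls received, or whether the replicates were separate cultures, and the p-values below therefore describe how far apart these particular libraries were, a spread that may be technical.

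Cells that run short of an amino acid, of haem or of folding capacity in the endoplasmic reticulum phosphorylate the translation factor eIF2alpha. General translation then slows while the mRNA of the transcription factor ATF4 is translated better, so the level of Atf4 RNA is only one part of its control. ATF4 binds C/EBP-ATF response elements and switches on stress factors, amino acid transporters, aminoacyl-tRNA synthetases and the enzymes that make asparagine and serine. Serine made from a glycolytic intermediate by PHGDH, PSAT1 and PSPH gives its carbon to folate through SHMT2 and MTHFD2 in mitochondria, and this carbon is used to make purines and thymidylate in dividing cells.

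A short form of the response element, TGATGNAA on either strand, was searched in the RefSeq promoter windows of build GRCm38.p6, which run from 250 bases before to 50 bases after each annotated start. All 10 genes had a window, and Psat1 had more than 1. A match stood in the windows of 3 of the 10 genes, Trib3, Chac1 and Asns, that is in 3 of their 11 windows, against 3.97% of all 32851 windows. The windows with a match are shown because Trib3 and Chac1 varied most between the libraries while Asns did not follow them; the match is in capitals and every line is written 5′ to 3′ on the strand of the gene.
Trib3: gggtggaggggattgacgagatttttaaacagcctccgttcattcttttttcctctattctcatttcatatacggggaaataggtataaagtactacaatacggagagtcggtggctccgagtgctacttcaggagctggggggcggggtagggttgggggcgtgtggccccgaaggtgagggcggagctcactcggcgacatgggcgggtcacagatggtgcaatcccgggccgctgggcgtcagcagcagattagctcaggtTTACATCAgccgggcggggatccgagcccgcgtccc
Chac1: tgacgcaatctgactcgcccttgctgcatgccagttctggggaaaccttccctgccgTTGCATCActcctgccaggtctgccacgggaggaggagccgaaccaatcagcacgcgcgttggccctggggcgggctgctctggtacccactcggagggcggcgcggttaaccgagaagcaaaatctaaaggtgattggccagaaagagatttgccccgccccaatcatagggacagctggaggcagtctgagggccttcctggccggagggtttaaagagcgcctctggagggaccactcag
Asns: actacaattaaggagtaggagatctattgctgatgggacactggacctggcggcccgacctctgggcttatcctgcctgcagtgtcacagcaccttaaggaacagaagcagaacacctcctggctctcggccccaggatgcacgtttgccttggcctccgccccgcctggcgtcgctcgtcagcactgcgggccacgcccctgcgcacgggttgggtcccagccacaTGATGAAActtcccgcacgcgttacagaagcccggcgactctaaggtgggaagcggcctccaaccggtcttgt
The Trib3 window (chr2:152344011-152344310, minus strand) held the match on the opposite strand, and its first capital is the transcript's base 15. The Chac1 window (chr2:119350992-119351291, plus strand) also held it on the opposite strand, beginning 193 bases before the start. The Asns window (chr6:7693160-7693459, minus strand) held it on the strand of the gene, beginning 23 bases before the start. A match is a description of these letters and not evidence of a bound site, and its absence from the other windows says nothing about ATF4 there.

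Values are the authors' RPKM, read numbers scaled by the length of the transcript and the depth of the library, so levels can be set beside each other between genes. Depth was not stated; from the steps of the lowest values it was estimated at 12799794 and 19471378 reads in KAI1 knockdown, 19010655 and 9878847 reads in the knockdown controls, 19573115 reads in KAI1 overexpression and 25841393 reads in its control. At these depths an estimated 63 reads (Trib3 in knockdown replicate 1) to 21575 reads (Atf4 in control replicate 1) stood behind a value of the 10 genes. Cd82 itself stood at 7.65 and 6.91 RPKM in KAI1 knockdown against 43.9 and 13.8 RPKM in its controls (log2 difference -1.64; limma adjusted p = 0.83), and at 15.2 RPKM in KAI1 overexpression against 11.9 RPKM in its control. The libraries also differed in lineage genes. The summed level of 10 mast cell and basophil markers was 4789 and 4008 RPKM in KAI1 knockdown against 42906 and 7621 RPKM in the controls, and 17233 RPKM in KAI1 overexpression against 3780 RPKM in its control. Of these markers 6 of 9 tested lay below both controls in the knockdown, against 17.0% of all entries tested. With overexpression 8 of 10 were at least 2-fold higher, against 4.92% of all entries. The filter of this arm was a mean of 1 RPKM or more over its own libraries. Prss34, Fcer1a and Ms4a2 passed it only through KAI1 overexpression, at 4.20, 7.41 and 5.86 RPKM. In the overexpression control they stood at 0.212, 0.261 and 0.443 RPKM, so their being higher was set by the filter. Prss34 did not pass the filter of the knockdown arm. The sum was carried by a few genes, with Cma1 at 22312 RPKM and Mcpt4 at 9416 RPKM in control replicate 1. The basophil protease Mcpt8 had another order, at 234 and 116 RPKM in KAI1 knockdown against 159.6 and 389 RPKM in the controls, and at 3908 RPKM in KAI1 overexpression against 491 RPKM in its control. Cpa3 was abundant throughout (2246 to 6236 RPKM), and Prss34, another basophil protease, stayed at or below 4.20 RPKM. Fcer1a, a chain of the IgE receptor, stood at 24.2 RPKM in control replicate 1 and 7.41 RPKM in KAI1 overexpression. It did not exceed 0.289 RPKM in the other libraries, with 0 in KAI1 knockdown replicate 1 and control replicate 2. The summed level of 6 erythroid markers was lowest in control replicate 1, at 2047 and 2262 RPKM in KAI1 knockdown against 161.5 and 2481 RPKM in the controls and at 659 RPKM in KAI1 overexpression against 2010.4 RPKM in its control. In every library but control replicate 1 most of this sum was Hbb-bt, a beta globin gene (1901 RPKM in KAI1 knockdown replicate 1), and not every member followed it: Gata1 (87.3 RPKM) and Epor (15.6 RPKM) were highest in control replicate 1. Early neutrophil and progenitor markers summed to 1260.5 and 985 RPKM in KAI1 knockdown against 1089 and 1247 RPKM in the controls, and to 1356 RPKM in KAI1 overexpression against 1765 RPKM in its control. Within them Mpo stood at 750.3 and 469.8 RPKM in KAI1 knockdown against 7.84 and 538.0 RPKM in the controls, and at 45.8 RPKM in KAI1 overexpression against 661 RPKM in its control. Cd34, a progenitor surface protein, stood at 65.7 and 77.9 RPKM in KAI1 knockdown against 0.859 and 64.7 RPKM in the controls, and at 15.9 RPKM in KAI1 overexpression against 66.4 RPKM in its control. Ctsg, also on this list, had another order, at 444 and 434 RPKM in KAI1 knockdown against 1080 and 643 RPKM in the controls. It stood at 1295 RPKM in KAI1 overexpression against 1034 RPKM in its control, and made up most of the sum in control replicate 1. Lymphoid markers reached 9.21 RPKM at most (Il7r in control replicate 1) with Cd3e at 0 in every library, and macrophage markers 2.92 RPKM. In bulk RNA, fewer cells of a type and less RNA per cell cannot be told apart.

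**Figure D1:**
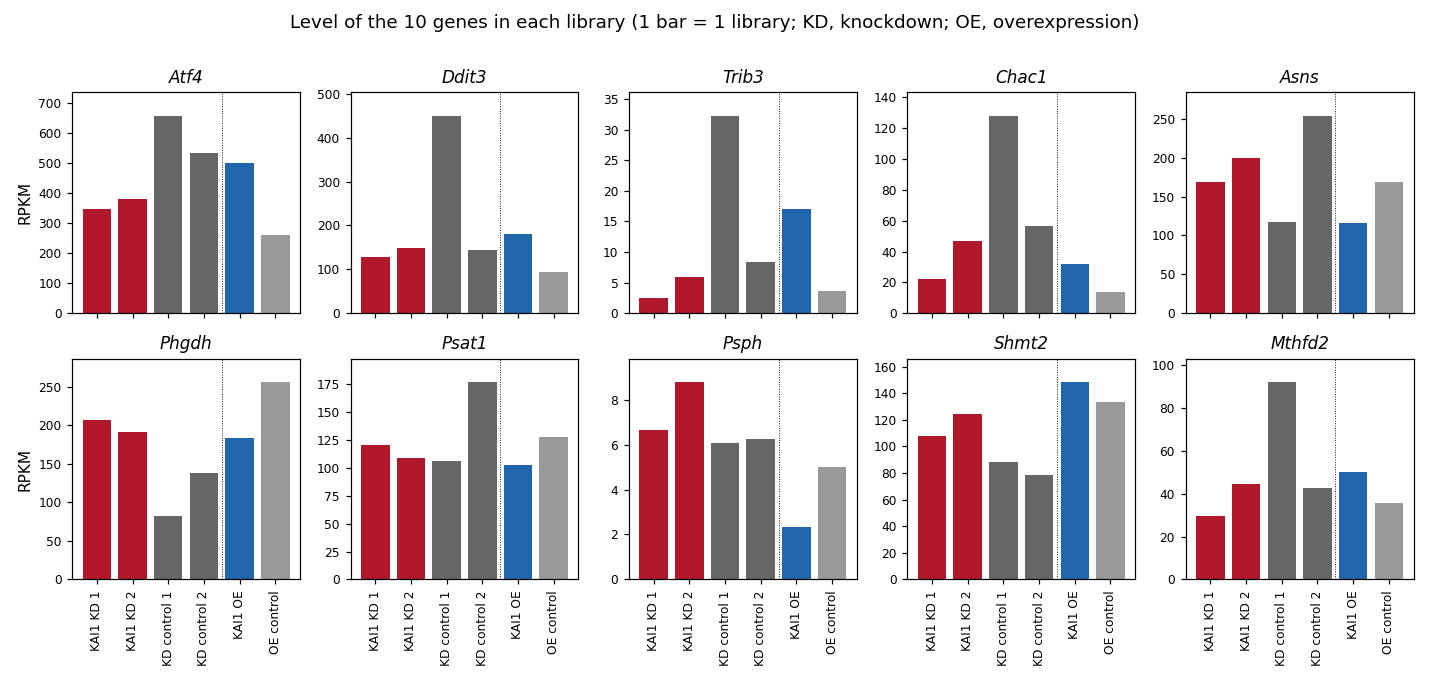
Level of each of the 10 genes (RPKM, linear axis from 0) in each library, 1 bar per library, with KAI1 knockdown left of its controls and KAI1 overexpression left of its control. Knockdown control replicate 1 holds the highest bar of Atf4, Ddit3, Trib3, Chac1 and Mthfd2 and the lowest of Phgdh (82.6 RPKM).

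Atf4, Trib3 and Chac1 lay lower in KAI1 knockdown than in the controls, Phgdh, Psph and Shmt2 lay higher, the other 4 genes overlapped, and 0 of the 10 passed the test. Both knockdown libraries lay below both controls for Atf4, Trib3 and Chac1, 3 of 10 genes, against 17.0% of all 10113 entries tested, and above both for Phgdh, Psph and Shmt2, 3 of 10, against 21.5% of all entries. Limma, fitted to log2(RPKM + 1) over all entries with Benjamini-Hochberg adjustment, called 0 of the 10, with 0.0297% of all entries called. The groups thus did not overlap for 6 of the 10 genes, against 38.5% of all entries. The adjusted p of the 10 genes ran from 0.83 to 0.967, and 0 of them had an unadjusted p below 0.05, against 3.32% of all entries. The median log2 difference of the 10, all of which passed the filter of a mean of 1 RPKM, was -0.48, against 0.028 over all entries tested.

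Atf4 (chromosome 15, 80085614 to 80087971 on mm9), the transcription factor at the centre of the response, stood at 348 and 382 RPKM in KAI1 knockdown against 658 and 535 RPKM in the controls. The knockdown libraries were close to each other and both lay under the lower control. The means were 365 ± 24.3 in KAI1 knockdown and 597 ± 86.6 in the controls (SD, n = 2 each), a log2 difference of -0.70 (SE 0.28; limma adjusted p = 0.83). Leaving out control replicate 1 or 2 gave -0.55 or -0.85, with adjusted p = 0.406 or 0.0652.

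Ddit3 (chromosome 10, 126727849 to 126748842), which encodes the stress factor CHOP, stood at 128 and 149 RPKM in KAI1 knockdown against 449 and 144.5 RPKM in the controls. Control replicate 2 lay between both knockdown libraries, so the groups overlapped, and the high value was that of control replicate 1 alone, 3.11 times its partner. The log2 difference was -0.88 (SE 0.61; limma adjusted p = 0.83). With control replicate 1 left out the difference nearly vanished, at -0.066 (adjusted p = 0.876). With control replicate 2 left out it was -1.70 and passed (adjusted p = 0.0308), in a fit whose control group is 1 library. The deposited locus of Ddit3 is shared with Mars1, the methionyl-tRNA synthetase gene, and the sources used here do not say how reads in the shared stretch were assigned. Mars1 stood at 42.3 and 43.3 RPKM in KAI1 knockdown against 52.6 and 50.2 RPKM in the controls.

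Trib3 (chromosome 2, 152163161 to 152169796), a pseudokinase that is induced by ATF4 and CHOP, varied most of the 10 genes, with 13.3-fold between its highest and lowest library. It stood at 2.42 and 5.94 RPKM in KAI1 knockdown against 32.2 and 8.30 RPKM in the controls. The groups did not overlap, yet the controls differed 3.88-fold from each other, and the log2 difference was -1.85 (SE 0.74; limma adjusted p = 0.83). It was -0.93 against control replicate 2 alone and -2.77 against control replicate 1 alone (adjusted p = 0.476 and 0.0594). The knockdown libraries also differed 2.45-fold, with an estimated 63 and 234 reads behind them.

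Chac1 (chromosome 2, 119176978 to 119180062), which encodes an enzyme that degrades glutathione, stood at 22.5 and 47.0 RPKM in KAI1 knockdown against 128 and 56.5 RPKM in the controls. Knockdown replicate 2 was 2.09 times replicate 1 and lay just under control replicate 2. The log2 difference was -1.36 (SE 0.57; limma adjusted p = 0.83), and it was -0.78 against control replicate 2 alone and -1.94 against control replicate 1 alone (adjusted p = 0.521 and 0.094).

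Asns (chromosome 6, 7625171 to 7643182), the asparagine synthetase gene and a classic ATF4 target, did not share this order of the libraries. It stood at 169 and 199.9 RPKM in KAI1 knockdown against 117.5 and 254 RPKM in the controls, which enclosed the knockdown libraries. Control replicate 1, the highest library for Atf4, Trib3 and Chac1, was the lower control here. The log2 difference was 0.090 (SE 0.45; limma adjusted p = 0.967), and it turned with the control left out: -0.46 against control replicate 2 alone and 0.64 against control replicate 1 alone (adjusted p = 0.407 and 0.114).

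Phgdh (chromosome 3, 98117094 to 98143892), which encodes the first and committed enzyme of serine synthesis, stood at 206 and 191 RPKM in KAI1 knockdown against 82.6 and 139 RPKM in the controls. Both knockdown libraries lay above the higher control, and control replicate 1 was the lowest of all 6 libraries. The means were 199 ± 10.6 in KAI1 knockdown and 111 ± 39.5 in the controls (SD, n = 2 each), a log2 difference of 0.89 (SE 0.35; limma adjusted p = 0.83). The difference was 0.52 against control replicate 2 alone and 1.26 against control replicate 1 alone. The control group of each of these fits is 1 library.

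Psat1 (chromosome 19, 15979613 to 15999549), the aminotransferase of the next step, stood at 120.0 and 109 RPKM in KAI1 knockdown against 106 and 176 RPKM in the controls. The groups overlapped, the log2 difference was -0.25 (SE 0.35; limma adjusted p = 0.877), and it was -0.62 against control replicate 2 alone and 0.11 against control replicate 1 alone (adjusted p = 0.406 and 0.662). Psph (chromosome 5, 130271434 to 130293129), the phosphatase of the last step, stood at 6.65 and 8.77 RPKM in KAI1 knockdown against 6.08 and 6.24 RPKM in the controls. Both knockdown libraries lay above both controls, the controls were almost equal, and the log2 difference was 0.27 (SE 0.24; limma adjusted p = 0.834). The spread of Psph lay in the knockdown group: the difference was 0.45 without KAI1 knockdown replicate 1 and 0.097 without KAI1 knockdown replicate 2.

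Shmt2 and Mthfd2, neighbours in the mitochondrial folate pathway, had differences of opposite sign. Shmt2 (chromosome 10, 126951995 to 126959500), which takes carbon from serine, stood at 107 and 124 RPKM in KAI1 knockdown against 88.0 and 78.6 RPKM in the controls. The groups did not overlap, the controls lay close together, and the log2 difference was 0.47 (SE 0.25; limma adjusted p = 0.83), with 0.55 and 0.39 without control replicates 1 and 2 (adjusted p = 0.406 and 0.222). The deposited locus of Shmt2 also holds another entry, Ndufa4l2, so the limit on read assignment given for Ddit3 applies to it as well. Mthfd2 (chromosome 6, 83255698 to 83267598), which oxidises the carbon-bearing folate, stood at 29.5 and 44.5 RPKM in KAI1 knockdown against 91.9 and 42.7 RPKM in the controls. Control replicate 2 lay between both knockdown libraries, and control replicate 1 was 2.15 times its partner. The log2 difference of Mthfd2 was -0.77 (SE 0.47; limma adjusted p = 0.83), and it was -0.23 against control replicate 2 alone and -1.32 against control replicate 1 alone (adjusted p = 0.739 and 0.0827).

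Several of these differences depended on control replicate 1. Over all entries it was at least 2-fold higher than control replicate 2 in 12.8% and at least 2-fold lower in 8.56%. It was the highest of the 6 libraries for 5 of the 10 genes (Atf4, Ddit3, Trib3, Chac1 and Mthfd2) and the lowest for 1 (Phgdh). How many of all entries had their highest or lowest value in control replicate 1 is not given here. Its mast cell and basophil sum was also the highest of the 6 libraries and its erythroid and S phase sums the lowest, with 560.2 RPKM over 10 S phase genes against 734 to 960.2 RPKM in the other libraries. Single markers such as Mcpt8, Gata1 and Epor did not follow these sums. Mpo and Cd34 were lowest in control replicate 1 too. Ctsg, from the same list, was not, at 1080 RPKM there against 643 RPKM in control replicate 2. The part of these marker differences in the values of the 10 genes was not tested. Without control replicate 1, Atf4, Trib3 and Chac1 stayed below the remaining control, joined by Asns and Psat1, and Phgdh, Psph and Shmt2 stayed above it, against 36.0% of all entries below and 42.0% above in that comparison.

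**Figure D2:**
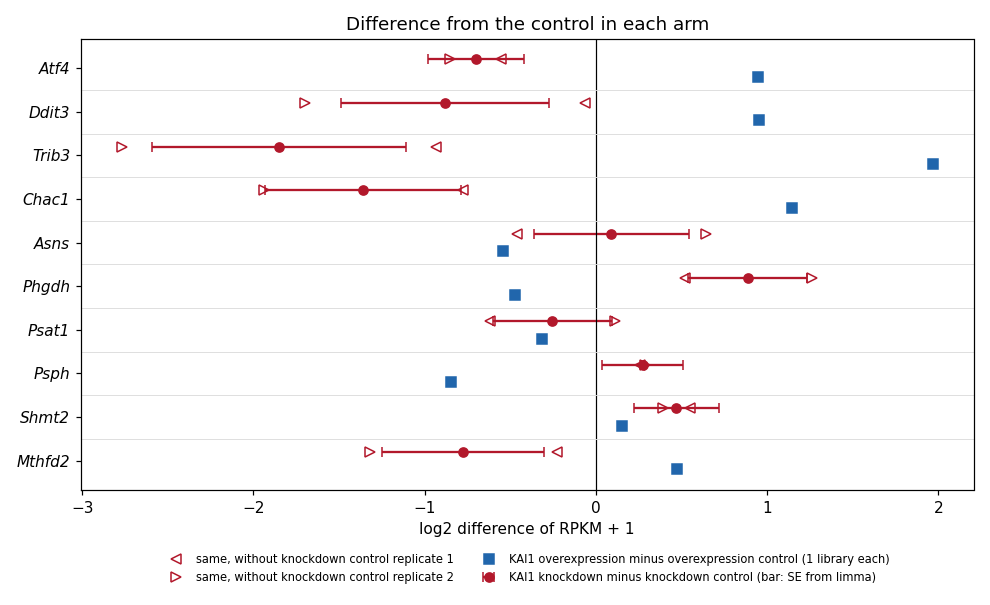
Log2 difference of RPKM + 1 for each gene: KAI1 knockdown minus knockdown control (filled circles with limma's SE), the same without control replicate 1 or 2 (open triangles), and KAI1 overexpression minus overexpression control (squares, 1 library each). Atf4, Ddit3, Trib3, Chac1 and Mthfd2 lie left of 0 in the knockdown and right of 0 in the overexpression arm, with Trib3 farthest out at -1.85 and 1.97.

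In the overexpression arm Atf4, Ddit3, Trib3 and Chac1 lay higher with KAI1 and Asns and the serine synthesis genes lower, each in 1 library against 1 and without a test. Atf4 stood at 501 RPKM in KAI1 overexpression against 259 RPKM in its control, 1.93-fold higher on the RPKM + 1 scale that is used for every fold in this arm. Ddit3 stood at 180.1 RPKM in KAI1 overexpression against 92.8 RPKM in the control, also 1.93-fold. Trib3 was 3.91-fold higher, at 17.1 RPKM in KAI1 overexpression against 3.62 RPKM in the control, and Chac1 2.21-fold higher, at 32.1 RPKM in KAI1 overexpression against 14.0 RPKM in the control. Trib3 and Chac1 were thus 2 of 10 genes at least 2-fold higher, against 4.92% of 9936 entries, and 0 of 10 were at least 2-fold lower, against 5.21%.

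The other direction held for 4 genes. Psph stood at 2.34 RPKM in KAI1 overexpression against 5.01 RPKM in the control, a fold of 0.555, or a log2 ratio of -0.85 that was -1.07 with a pseudocount of 0.1 RPKM. Asns stood at 116 RPKM in KAI1 overexpression against 169 RPKM in the control (0.687-fold), Phgdh at 184 RPKM in KAI1 overexpression against 256 RPKM in the control (0.721-fold) and Psat1 at 103 RPKM in KAI1 overexpression against 128 RPKM in the control (0.804-fold). Mthfd2 was higher, at 50.1 RPKM in KAI1 overexpression against 35.8 RPKM in the control (1.39-fold), and Shmt2 differed least, at 148 RPKM in KAI1 overexpression against 133 RPKM in the control (1.11-fold). Of the 10 genes 6 lay higher with KAI1 overexpression, against 50.6% of entries, and their median log2 ratio was 0.31, against 0.0057 over all entries. Counting error alone, from the estimated reads, gave the plain RPKM ratio of Trib3 (4.72) a 95% interval of 4.02 to 5.59 and that of Psph (0.467) one of 0.356 to 0.604, both from exact binomial limits; these intervals cover counting error only, and the spread between cultures was not measured in this arm.

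The arms share no library, and their values can be set side by side. Atf4, Trib3 and Chac1, 3 of 10 genes, lay below both controls in the knockdown and higher with overexpression, against 11.8% of 9736 entries measured in both arms. Phgdh and Psph, 2 of 10, lay above both controls in the knockdown and lower with overexpression, against 14.9% of entries. Shmt2 lay higher than the control in both arms. The mast cell and basophil marker sum was also lower in both KAI1 knockdown libraries than in their controls and higher in KAI1 overexpression than in its control, as given above, and its part in the pattern was not tested.

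Across the 4 groups Atf4 stood highest in the knockdown controls, followed by KAI1 overexpression, KAI1 knockdown and the overexpression control. Phgdh had the opposite order at its ends, with the overexpression control highest, KAI1 knockdown (199 RPKM on average) and KAI1 overexpression (184 RPKM) next, and the knockdown controls lowest. The Phgdh level of KAI1 overexpression lay under both KAI1 knockdown libraries, and as a single library it has no spread of its own to set beside that gap. Asns and Psat1 were highest in control replicate 2 and lowest in KAI1 overexpression, and Psph was highest in KAI1 knockdown and lowest in KAI1 overexpression. The knockdown controls differed from each other by 2.15-fold to 3.88-fold in Trib3, Ddit3, Chac1, Asns and Mthfd2, and by 1.23-fold in Atf4.

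The wider pathway was read from 8 lists of 92 genes, of which 79 passed the filter in the knockdown arm. Limma with Benjamini-Hochberg adjustment called 0 of the 79 genes, and 3 had an unadjusted p below 0.05. Both KAI1 knockdown libraries lay above both controls for 14 genes and below them for 16. In the overexpression arm, 5 of 80 genes lay above their control by 2-fold or more and 3 lay below it by as much. The shares of all entries given above are the background for these counts.

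Of the pathway lists, amino acid transporters lay highest with KAI1 overexpression. All 8 of 8 were higher, against 50.6% of all entries, and 4 were at least 2-fold higher, against 4.92%. Their median log2 ratio was 1.03, and that of the mast cell and basophil markers was 2.49. Slc7a5, the large neutral amino acid transporter, stood at 163 RPKM in KAI1 overexpression against 61.4 RPKM in its control. In the knockdown arm Slc7a5 stood at 51.8 and 71.2 RPKM in KAI1 knockdown against 301 and 61.3 RPKM in the controls, so that the groups overlapped. Its partner chain Slc3a2, named after its values were seen, had the same shape, with 231 RPKM in KAI1 overexpression against 103 RPKM in its control, and 100.2 and 141 RPKM in KAI1 knockdown against 373 and 125 RPKM in the controls. Slc6a9, a glycine transporter, stood at 21.4 RPKM in KAI1 overexpression against 6.29 RPKM in its control, and at 7.90 and 10.9 RPKM in KAI1 knockdown against 43.9 and 6.76 RPKM in the controls. These 3 transporters were highest in control replicate 1. Slc1a5, a glutamine transporter, stood at 56.5 RPKM in KAI1 overexpression against 24.1 RPKM in its control without such a peak, at 32.3 and 37.1 RPKM in KAI1 knockdown against 35.8 and 41.6 RPKM in the controls. Slc1a4, which carries serine and alanine, lay below both controls at 3.95 and 5.81 RPKM in KAI1 knockdown against 17.2 and 5.85 RPKM, and Slc38a1 lay above them at 13.7 and 13.9 RPKM in KAI1 knockdown against 10.2 and 12.6 RPKM. In the knockdown 1 of the 8 transporters lay above both controls, against 21.5% of all entries, and 1 below, against 17.0%. The median log2 difference of the 8 was -0.66.

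Of the other amino acid response genes, 8 were tested. Of these, 2 lay below both controls, against 17.0% of all entries, and 0 above, against 21.5%. The median log2 difference of the 8 was -0.43. Nupr1, a stress-induced chromatin protein, stood at 8.36 and 21.5 RPKM in KAI1 knockdown against 132 and 23.0 RPKM in the controls, and at 60.6 RPKM in KAI1 overexpression against 10.1 RPKM in its control. Cebpg, a binding partner of ATF4, stood at 7.60 and 6.92 RPKM in KAI1 knockdown against 11.1 and 8.09 RPKM in the controls. Ddit4, an inhibitor of mTORC1 signalling, was the gene at least 2-fold lower with overexpression, at 6.38 RPKM in KAI1 overexpression against 15.7 RPKM in its control. Atf3, another target, reached no more than 0.0814 RPKM in any library. Of the amino acid synthesis list 5 genes were tested. Of these, 1 lay below both controls and 0 above, against 17.0% and 21.5% of all entries. The 1 below was Got1, at 8.76 and 7.08 RPKM in KAI1 knockdown against 11.6 and 10.6 RPKM in the controls. The eIF2alpha kinases and phosphatase had 5 genes tested, with 1 below both controls and 0 above, against the same shares of all entries. The 1 below was the RNA-activated kinase gene Eif2ak2, at 6.13 and 5.60 RPKM in KAI1 knockdown against 7.25 and 7.44 RPKM in the controls.

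**Figure D3:**
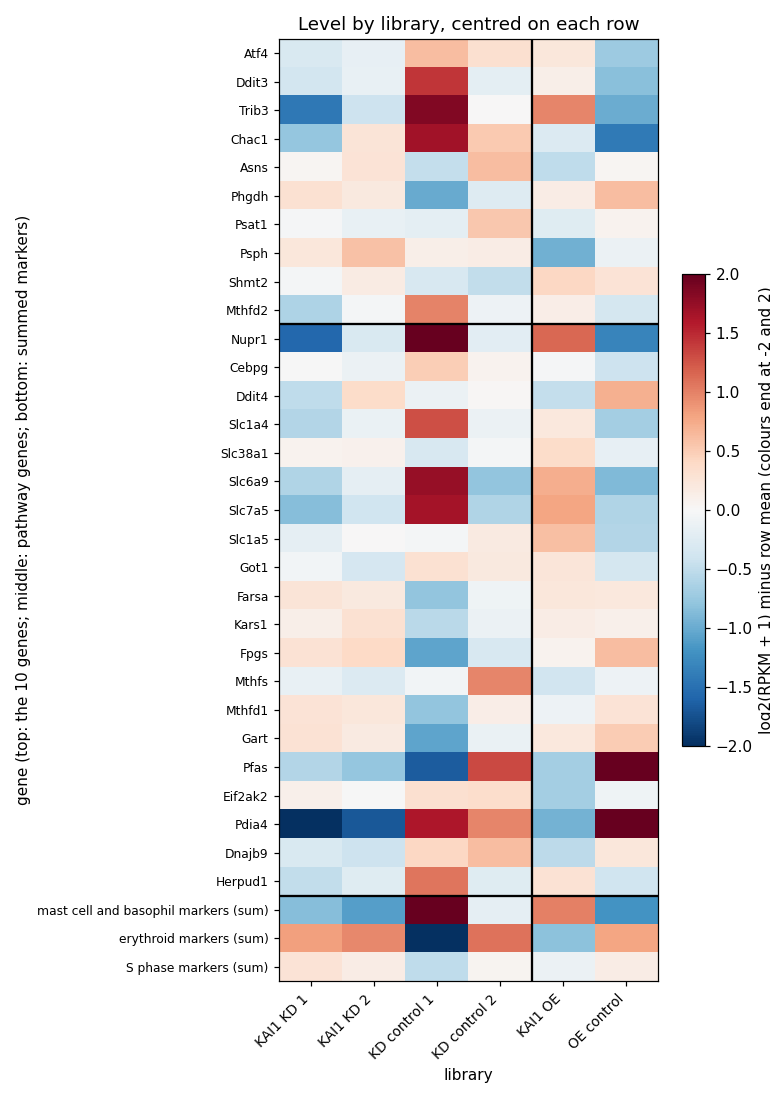
Log2(RPKM + 1) of each gene minus its mean over the 6 libraries, for the 10 genes, the named pathway genes and 3 marker sums, with libraries across and colours ending at -2 and 2. Trib3, Nupr1 and the mast cell and basophil sum are highest in knockdown control replicate 1, the column in which Phgdh and the erythroid sum are lowest.

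Of 15 folate and glycine enzymes tested, 7 lay above both controls, against 21.5% of all entries, and 1 below, against 17.0%, with a median log2 difference of 0.30. With overexpression 6 of 15 lay higher, against 50.6% of all entries, and 9 lower. Fpgs, which adds glutamates to folate, stood at 14.8 and 16.0 RPKM in KAI1 knockdown against 5.24 and 9.31 RPKM in the controls (log2 difference 1.03; limma adjusted p = 0.83), and at 12.6 RPKM in KAI1 overexpression against 18.9 RPKM in its control. Mthfd1, the cytosolic folate enzyme, stood at 22.5 and 21.7 RPKM in KAI1 knockdown against 10.2 and 20.2 RPKM in the controls. Mthfs was the gene below both controls, at 3.63 and 3.27 RPKM in KAI1 knockdown against 3.95 and 9.09 RPKM. Of 6 purine synthesis genes 1 lay above both controls, against 21.5% of all entries, and 0 below, against 17.0%. The 1 above was Gart, at 29.8 and 27.7 RPKM in KAI1 knockdown against 11.2 and 22.0 RPKM in the controls. Pfas, another enzyme of the pathway, stood at 10.7 RPKM in KAI1 overexpression against 95.5 RPKM in its control, and at 11.5 and 9.99 RPKM in KAI1 knockdown against 4.93 and 45.6 RPKM in the controls. Of 10 S phase markers, genes of DNA replication, 5 also lay above both controls in the knockdown, against 21.5% of all entries. Their median log2 difference was 0.48. With overexpression 1 of these 10 lay higher, against 50.6% of all entries, and 9 lower. The part of these markers in the values of the folate genes was not tested, and Tyms stands on both lists.

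Aminoacyl-tRNA synthetases, which load tRNAs and include many ATF4 targets, lay on both sides. Of 20 tested, 3 lay above both controls, against 21.5% of all entries, and 5 below, against 17.0%. The median log2 difference of the 20 was 0.0089. Those above included Farsa and Kars1, and those below, named after their values were seen, were Eprs1, Gars1, Lars1, Mars1 and Yars1. Farsa stood at 140.0 and 134 RPKM in KAI1 knockdown against 67.1 and 111 RPKM in the controls. Kars1 stood at 67.0 and 76.9 RPKM in KAI1 knockdown against 42.2 and 56.9 RPKM in the controls. With overexpression 17 of 20 lay higher, against 50.6% of all entries, by a median log2 ratio of 0.33 and with 0 at least 2-fold.

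ER chaperones and folding genes, which answer the unfolded protein branch of the same stress, had 12 genes tested. Of these, 2 lay above both controls, against 21.5% of all entries, and 5 below, against 17.0%. The median log2 difference of the 12 was -0.20. Pdia4, a disulphide isomerase, had the largest knockdown difference on the pathway lists (log2 difference -3.17, limma adjusted p = 0.521). It stood at 18.9 and 24.5 RPKM in KAI1 knockdown against 252 and 162 RPKM in the controls. It was also far lower with overexpression, at 41.9 RPKM in KAI1 overexpression against 353 RPKM in its control, so both manipulated groups lay below their controls. Dnajb9, a cochaperone, stood at 1.21 and 1.04 RPKM in KAI1 knockdown against 2.66 and 3.20 RPKM in the controls. Herpud1, a degradation factor, stood at 22.5 and 27.0 RPKM in KAI1 knockdown against 68.1 and 27.0 RPKM in the controls, so that its lower control and higher knockdown library were nearly equal.

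The entries whose levels followed Atf4 and Phgdh most closely over the 6 libraries were ranked by Pearson r of log2(RPKM + 1) among the 5326 entries that averaged 10 RPKM or more, as a description. All points share their libraries, and the highest of 5326 values of r over 6 libraries is large by selection. For Atf4 they were Mars1 (r = 0.99), the gene that shares its locus with Ddit3, Fcer1g (0.985), Cltc (0.98), Yipf5 (0.978) and Zc3hav1 (0.976). Fcer1g, a signalling chain of Fc receptors, stood at 2223 and 2173 RPKM in KAI1 knockdown against 4608 and 3309 RPKM in the controls, and at 3623 RPKM in KAI1 overexpression against 1488 RPKM in its control. For Phgdh they were Mrpl37 (r = 0.995), Lmnb1 (0.993), Fubp1 (0.9895), Rpsa (0.9894) and Samm50 (0.989). Lmnb1, the lamin B1 gene, stood at 77.6 and 65.7 RPKM in KAI1 knockdown against 35.6 and 55.9 RPKM in the controls, and at 68.0 RPKM in KAI1 overexpression against 90.4 RPKM in its control.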

How the data were processed

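RNA of 6 libraries was measured, and the authors deposited 1 table of RPKM per library, per the file headers. TopHat2 2.0.9, Bowtie, Cufflinks and the mouse build mm9 are named in the submitters' processing notes, without settings; the sources used here do not give strandedness. Coordinates are the deposited mm9 ones. Of 23170 entries, 24 repeats were dropped. Accessions were given symbols with RefSeq, whose GRCm38.p6 table also gave the promoters. Depth was estimated from the pile of values worth 1 read in entries of at least 1500 bases.

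In the knockdown arm, limma 3.58.1 (R 4.3.3) was fitted to log2(RPKM + 1) of its 4 libraries for 10113 entries averaging 1 RPKM or more, with Benjamini-Hochberg adjustment and a threshold of 0.05, after tests on simulated data. An exact permutation test of 2 against 2 libraries cannot go below p = 0.333. The overexpression arm has 1 library a group and no test. From each pathway list the text names up to 3 genes with the largest difference among those whose groups do not overlap, and up to 3 among those at least 2-fold apart with overexpression. A gene that this rule names is not reported here. Members and lists were chosen with earlier results of these data known. Alternatives were another pseudocount, no filter, quantile normalization, median scaling, a replicate block and leaving out each library. Tables and figures used Python 3.11.15.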

Additional observations from a re-analysis of the deposited data

How the results depend on the processing

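With 2 libraries a group, the calls came and went with the controls, and Psph varied with the knockdown libraries (0.0965 to 0.448). Leaving out each library in turn gave 0 to 2 of the 10 genes called, a median log2 difference of -0.478 to -0.346 and 6 to 10 genes whose groups did not overlap. The 2 calls, Ddit3 (-1.70) and Phgdh (1.26), came without control replicate 2, where limma called 1045 of all 10113 entries, against 16 without control replicate 1 and 3 with all libraries. In these fits the lone control is assumed to vary like the knockdown group. A group of 1 library also overlaps less often for any entry. Without control replicate 2, where all 10 genes did not overlap, 44.2% of all entries lay above the remaining control and 41.3% below it. Without KAI1 knockdown replicate 1, where 6 did not overlap, these shares were 32.0% and 25.7%. The sign of Asns reversed to -0.0291 without KAI1 knockdown replicate 2 and to -0.461 without control replicate 1, and ran to 0.642 without control replicate 2; that of Psat1 reversed to 0.113 without control replicate 2 and was -0.621 without control replicate 1; fewer samples are the only change in these fits. Over all entries limma called 5 with a pseudocount of 0.1 RPKM, 0 of 15105 without the filter (683 at an unadjusted p below 0.05), 2 after quantile normalization, 4 with the replicate block, and 0 without either KAI1 knockdown library (88 and 58 at an unadjusted p below 0.05). With the replicate block 0 of the 10 genes were called, the median stayed at -0.478 and 6 did not overlap. Same-numbered libraries did not deviate together (r = -0.0754 over 10113 entries). This r compares 1 pair of libraries in each group, so it cannot show whether same-numbered libraries were handled together. The main fit takes the numbers as names only. Quantile normalization gave 7 genes that did not overlap, adding Mthfd2 below the controls, with 21.2% of all entries above and 16.5% below. Median scaling also gave 7, adding Ddit3 below the controls, with 19.0% of all entries above and 19.5% below. With overexpression 2 genes stayed at least 2-fold apart, 3 with a pseudocount of 0.1 RPKM, and the median log2 ratio was 0.301 to 0.319. Single libraries of the overexpression arm leave the spread between cultures unmeasured.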
